A study of Bos taurus with 20 samples.

Results

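The liver of dairy cows that received adequate dietary phosphorus before calving was compared after and before calving, using 10 arrays from 5 cows, each cow sampled once postpartum and once antepartum. These were the arrays labelled AP, 10 of 20 in the series, and they were paired by the animal number in the sample title. In the study 30 Holstein-Friesian cows entering lactation 2 to 4 were assigned to a dry cow ration with adequate (AP, 0.35% phosphorus of dry matter) or low phosphorus (LP, 0.16%) for the last 4 weeks before calving, at no more than 11.5 kg of dry matter a day. Both diets shared this feed limit, and from calving on every cow had free access to one lactation ration with adequate phosphorus, so that calving, lactation and a change of feed fall together in this comparison. Postpartum AP arrays (5), antepartum AP arrays (5), and for 1 comparison the postpartum (5) and antepartum LP arrays (5) were used. The days of sampling relative to calving, and how 10 of the 30 cows were chosen for arrays, are not given in the sources used here. The AP cows are called F to J and the LP cows A to E.

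Around calving a dairy cow begins to export glucose, fat and protein in milk while feed intake lags, and the liver answers with more glucose production and with oxidation and re-export of fatty acids that arrive from adipose tissue. Growth hormone then circulates at a high level, but the liver of the early lactating cow responds to it with little insulin-like growth factor, a state known as uncoupling of the somatotropic axis. Calving is also followed by an acute phase response, in which the liver changes the set of plasma proteins it secretes.

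Every gene with a single symbol on the array was a member, 20011 genes in all, each read from its brightest probe set. Values are log2 signals, on which a difference of 1 is a 2-fold change, and a change is the postpartum minus the antepartum signal of the same cow, averaged over 5 cows. The first principal component of the 10 arrays, with 24.7% of their variance, had scores of 9.82 to 27.3 for the postpartum arrays and of -22.5 to -11.5 for the antepartum arrays. The antepartum array of cow F held more skeletal muscle signal than the others, with a mean of 7.00 over 17 muscle markers against 5.26 to 5.66 in the other antepartum arrays and 5.08 to 5.54 in the postpartum arrays. Of 12 hepatocyte markers 10 had a negative change and 1 passed, the plasma carrier TTR. ALB, encoding albumin, had a signal of 13.65 ± 0.05 postpartum and 13.70 ± 0.02 antepartum (SD, n = 5 each). In bulk liver, fewer cells of a type and less RNA per cell cannot be told apart, and a shift of all genes together is hidden by the normalization, which left array medians between 5.97 and 6.06.

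Across calving 467 genes changed, which is 2.33% of those tested (limma with the cow as a block, Benjamini-Hochberg adjusted p under 0.05). Of these 279 (1.39%) rose and 188 (0.939%) fell, 54 and 43 of them at least 2-fold. The median size of the called changes was 0.68 on the log2 scale. The 28 pathway lists described below held 782 distinct measured genes, and 113 of these passed. Those lists were chosen with earlier results of these data known. Counts for each list are to be read beside the shares of 1.39% and 0.939% over all genes. All 5 cows moved the same way in 278 of the genes that rose and 187 of those that fell. In 204 and 130 of them the 5 postpartum arrays lay wholly above or below the 5 antepartum arrays, which held for 2.19% and 2.01% of all genes. Before adjustment, 2946 genes had a p under 0.05. The count depended on which cow was left out: leaving out cow F gave 203 genes, cow H 178, cow I 175 and cow J 229, while leaving out cow G gave 495.

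**Figure D1:**
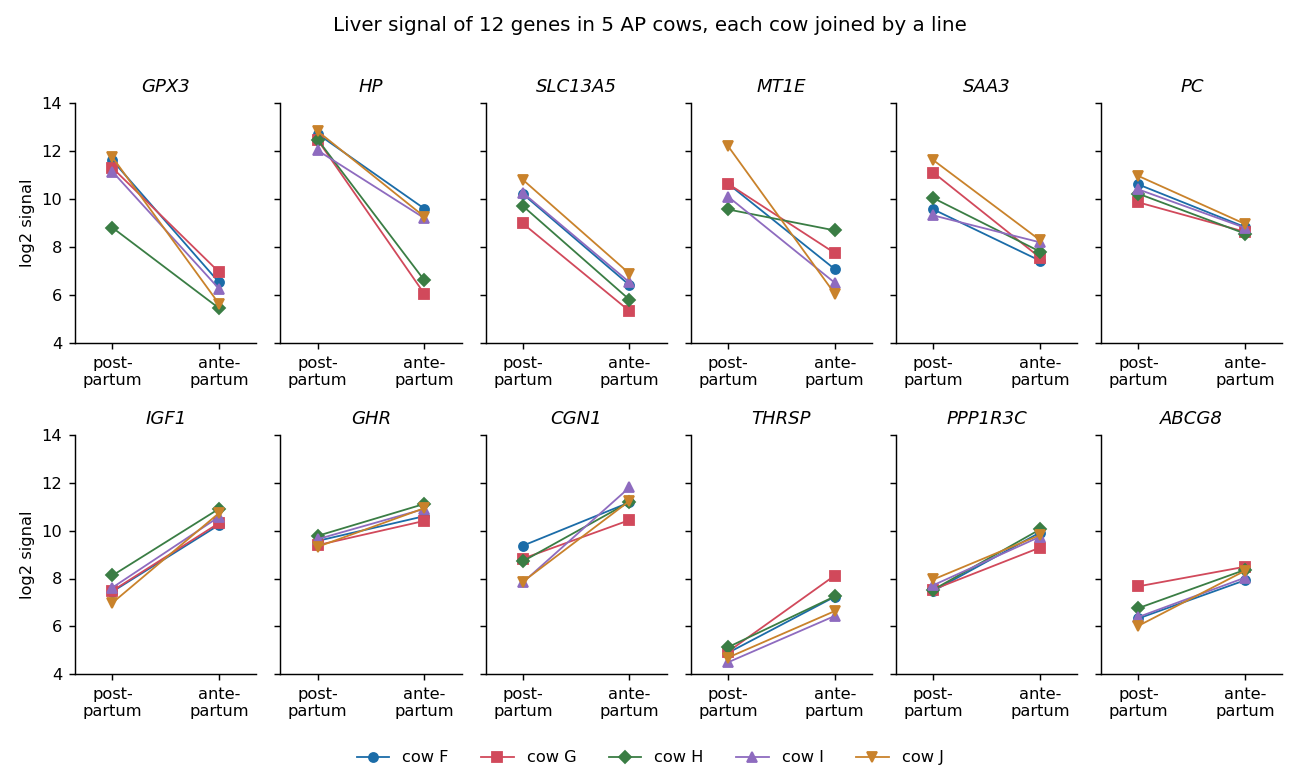
Log2 signal of 6 genes that rose (top) and 6 that fell (bottom) in the 5 AP cows, postpartum on the left and antepartum on the right, with 1 line per cow. The lines of SLC13A5 run almost parallel, with changes of 3.65 to 3.92, while HP was at 12.03 to 12.83 postpartum in all cows and at 6.05 to 9.60 antepartum.

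The growth hormone axis held the gene with the largest fall. IGF1, encoding the growth factor that the liver secretes under growth hormone, had signals of 7.45, 7.49, 8.13, 7.62 and 6.99 in cows F to J postpartum, against 10.24, 10.31, 10.91, 10.57 and 10.73 antepartum. The groups lay far apart, and cow J was lowest postpartum. The fall was 8.10-fold (log2 change -3.02, SE 0.15, adjusted p = 1.97e-05). GHR, the growth hormone receptor, had 9.57, 9.39, 9.78, 9.64 and 9.32 postpartum, against 10.60, 10.40, 11.11, 10.90 and 10.93 antepartum. All 5 cows were lower postpartum without overlap, by 1.01 to 1.61, and the change was -1.25 (SE 0.11, adjusted p = 0.000941). IGFALS, the acid-labile subunit that holds IGF1 in its large circulating complex, fell by 1.49 (adjusted p = 0.00155), and IGFBP3, the binding protein of that same complex, fell by 0.89 (adjusted p = 0.0221).

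Of the other binding proteins measured, 3 rose. IGFBP2 rose by 1.19 (SE 0.16, adjusted p = 0.00652) and stood at 11.84 ± 0.29 postpartum against 10.65 ± 0.35 antepartum (SD, n = 5 each). IGFBP1, a binding protein that insulin represses, rose by 1.47 (SE 0.30, adjusted p = 0.0367), and IGFBP4 by 0.57 (adjusted p = 0.0242). IGFBP1 changed most in cow H, with a change of 3.22 against 0.75 to 1.42 in the other cows. IRS2, an adaptor of the insulin receptor, rose by 0.71 (adjusted p = 0.0113), as did SOCS3, an inhibitor of cytokine signalling, by 0.70 (adjusted p = 0.0419). SOCS2, a growth hormone target, changed by 0.40 without passing (adjusted p = 0.609) and was lower postpartum in cow J. Of the 27 genes of this list 5 rose and 4 fell, with a median change of -0.04 against -0.02 over all genes. Of all genes 1.39% rose and 0.939% fell. Without cow F, H or I the number that rose was 2.

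Of 27 gluconeogenesis genes 8 rose and 0 fell, against 1.39% and 0.939% of all genes, and their median change was 0.32. The number that rose was 3 without cow I, 4 without cow F or J, and 6 or 7 without cow G or H. PC, the pyruvate carboxylase that makes oxaloacetate from pyruvate, had 10.61, 9.86, 10.22, 10.40 and 10.96 in cows F to J postpartum, against 8.83, 8.63, 8.56, 8.80 and 8.96 antepartum. Each postpartum array lay above each antepartum one, with a change of 1.65 (3.15-fold, SE 0.12, adjusted p = 0.000261). GK, the kinase that lets glycerol enter the pathway, rose by 1.61 (SE 0.19, adjusted p = 0.00363), least in cow G, by 0.65, and most in cow I, by 2.21. LDHB, the lactate dehydrogenase subunit of tissues that take up lactate, rose by 1.49 (SE 0.13, adjusted p = 0.000941) and LDHA by 0.68 (adjusted p = 0.0172). PPARGC1A, a coactivator of gluconeogenic genes, rose by 0.79 (adjusted p = 0.0119), MCEE, an epimerase of the propionate pathway, by 0.61 (adjusted p = 0.0277), and GPT2, an alanine aminotransferase, by 0.52 (adjusted p = 0.022).

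Enzymes of later steps were measured as well. PCK2, the mitochondrial phosphoenolpyruvate carboxykinase, rose by 0.52 (SE 0.11, adjusted p = 0.0364). PCK1, its cytosolic counterpart, had 12.31, 11.32, 11.97, 11.90 and 11.81 postpartum, against 11.23, 11.31, 11.34, 11.67 and 11.87 antepartum. Cow F was 1.08 higher and cow H 0.62 higher, while the other 3 cows moved by 0.24 or less, and the change of 0.38 did not pass (SE 0.16, adjusted p = 0.306). G6PC, which releases free glucose, changed by 0.45 (adjusted p = 0.151), and FBP1, the fructose bisphosphatase, by 0.13 (adjusted p = 0.581).

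Of 20 glycogen genes 2 fell and 2 rose, with a median change of -0.04. PPP1R3C, a subunit that targets protein phosphatase to glycogen, had 7.48, 7.54, 7.53, 7.72 and 7.96 postpartum, against 9.91, 9.29, 10.05, 9.74 and 9.81 antepartum. Both groups were tight and well apart, and the gene fell 4.33-fold (log2 change -2.11, SE 0.13, adjusted p = 0.00013). PPP1R3B, a targeting subunit of liver, fell by 1.58 (SE 0.17, adjusted p = 0.00271). GYS2, the liver glycogen synthase, rose by 0.76 (SE 0.11, adjusted p = 0.011) and GAA, the lysosomal enzyme that degrades glycogen, by 0.53 (adjusted p = 0.0351). PYGL, the liver glycogen phosphorylase, stood at 11.56 ± 0.07 postpartum and 11.59 ± 0.05 antepartum (SD, n = 5 each, adjusted p = 0.938). With 1 cow left out the 2 that fell still numbered 2, while 0 to 2 rose, 0 of them without cow H or I. In glycolysis 1 of 30 genes passed, PKLR, the pyruvate kinase of liver, which fell by 0.75 (SE 0.15, adjusted p = 0.0353).

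SLC13A5, encoding a plasma membrane transporter that brings citrate into hepatocytes, changed by nearly the same amount in every cow. It had 10.21, 8.98, 9.71, 10.26 and 10.81 in cows F to J postpartum, against 6.41, 5.33, 5.80, 6.53 and 6.89 antepartum. Cow G was lowest and cow J highest at both times. The changes per cow ran from 3.65 to 3.92, and the mean was 3.80, or 14.0-fold (SE 0.092, adjusted p = 4.7e-08). In the deposited annotation, whose genome build is not named in the sources available, the gene's probe set spans 25792457 to 25815845 on the plus strand of chromosome 19. A related sulfate carrier, SLC13A1, fell by 0.70 (adjusted p = 0.0169) at dim signals of 3.51 ± 0.39 postpartum and 4.21 ± 0.28 antepartum (SD, n = 5 each). The other 6 citrate, dicarboxylate and sulfate transporter genes measured did not pass.

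In fatty acid uptake and oxidation, 9 of 47 genes rose and 1 fell, against 1.39% and 0.939% of all genes, with a median change of 0.15. The number that rose was 4 without cow F, H, I or J and 10 without cow G, and without cow J the median was 0.08. ANGPTL4, a secreted inhibitor of lipoprotein lipase, rose 2.64-fold (SE 0.17 on the log2 scale, adjusted p = 0.00406). CPT1B, a carnitine palmitoyltransferase best known from muscle, rose by 1.17 (SE 0.17, adjusted p = 0.00879). The mean of 17 skeletal muscle markers changed by -1.84 in cow F and by -0.19 to 0.01 in the other cows. The part of muscle in the rise of CPT1B was not tested. ACADVL, the very long chain acyl-CoA dehydrogenase of mitochondria, rose by 0.71 (SE 0.099, adjusted p = 0.00743). CREB3L3, a liver transcription factor of fasting, rose by 0.88 (adjusted p = 0.00652). CPT2, HADHA, ETFDH, CYP4A11 and ACOX2, further enzymes of mitochondrial, microsomal and peroxisomal oxidation, rose by 0.43 to 0.60. ACSL5, an acyl-CoA synthetase, fell by 0.55 (adjusted p = 0.0304).

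Several other genes of fat use did not pass. CPT1A, the carnitine palmitoyltransferase of liver, was higher in all 5 cows, by 0.46 on average (SE 0.12, adjusted p = 0.0863). PDK4, a kinase that restrains pyruvate oxidation, changed by 0.47 (adjusted p = 0.133). FGF21, a fasting hormone of the liver, had 8.04, 6.31, 6.17, 6.58 and 5.40 postpartum, against 6.13, 5.66, 5.28, 5.45 and 6.86 antepartum. It was higher postpartum in 4 cows and lower in cow J, and its change of 0.63 did not pass (SE 0.37, adjusted p = 0.485). In the ketone body list of 10 genes 1 rose, SLC16A6, a transporter that exports ketone bodies from liver in zebrafish (0.67, SE 0.14, adjusted p = 0.0357). Its size leaned on cow F, with 1.24 against 0.20 to 0.68.

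**Figure D2:**
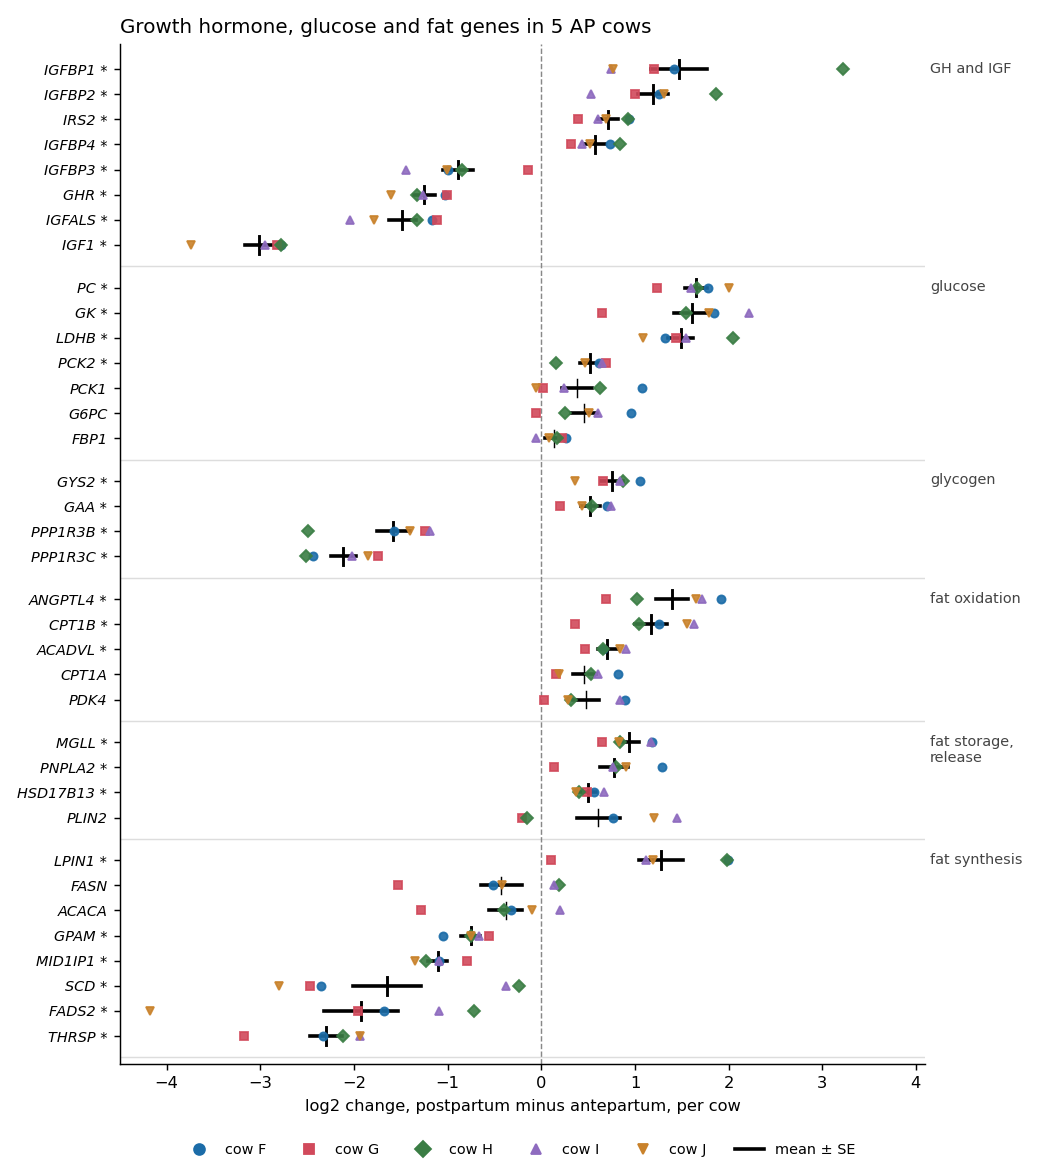
Log2 change of growth hormone, glucose, glycogen and fat genes across calving in each of 5 AP cows (coloured points), with the mean and its standard error in black; an asterisk marks an adjusted p under 0.05. IGF1 lay between -3.74 and -2.78 in all cows, PC between 1.23 and 2.00, and PCK1 between -0.06 and 1.08.

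Fatty acid and triglyceride synthesis held 6 genes that fell and 1 that rose among 29, with a median change of -0.19. Of all genes 0.939% fell and 1.39% rose. The number that fell was 3 without cow F and 4 without any other cow. THRSP, a regulator of lipogenesis, had 4.90, 4.95, 5.14, 4.51 and 4.70 postpartum, against 7.24, 8.12, 7.25, 6.44 and 6.64 antepartum. The groups were well apart, and the gene fell 4.92-fold (log2 change -2.30, SE 0.17, adjusted p = 0.000261). Its partner MID1IP1 fell by 1.11 (SE 0.10, adjusted p = 0.00135) and GPAM, the first enzyme of triglyceride assembly, by 0.76 (SE 0.10, adjusted p = 0.00559). SREBF1, a transcription factor of lipogenic genes, fell by 0.61 (adjusted p = 0.0363).

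Of 4 desaturase genes on the list 2 fell, SCD and FADS2, while FADS1 changed by -1.01 (adjusted p = 0.124) and SCD5 by 0.07 (adjusted p = 0.818). SCD, which makes oleate from stearate, had 8.50, 9.70, 10.31, 9.58 and 7.37 postpartum, against 10.86, 12.17, 10.55, 9.96 and 10.17 antepartum. It was 2.35 to 2.80 lower in cows F, G and J, but only 0.24 and 0.38 lower in cows H and I, so that the groups overlapped (log2 change -1.65, SE 0.36, adjusted p = 0.0486). FADS2, the delta-6 desaturase, fell by 1.92 (SE 0.39, adjusted p = 0.0363), with -4.18 in cow J against -1.95 to -0.71 in the others. SCD did not pass without cow F, G, I or J, and FADS2 did not without cow F, G, H or I. Neither passed without the block. FASN, the fatty acid synthase, changed by -0.43 (adjusted p = 0.406) and ACACA, an acetyl-CoA carboxylase, by -0.38 (adjusted p = 0.371), both with their lowest change in cow G. LPIN1, a phosphatidate phosphatase that also acts as a coactivator, rose by 1.28 (SE 0.24, adjusted p = 0.025), by 1.99 in cows F and H and by 0.11 in cow G.

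Of 18 lipid droplet genes 3 rose and 0 fell, but 1 rose without cow F, H, I or J. MGLL, the monoacylglycerol lipase, rose by 0.94 (SE 0.11, adjusted p = 0.00363), PNPLA2, the adipose triglyceride lipase, by 0.78 (SE 0.15, adjusted p = 0.0263), and HSD17B13, a droplet protein, by 0.50 (adjusted p = 0.0253). PLIN2, a droplet coat protein, had 8.39, 7.21, 7.62, 8.58 and 8.37 postpartum, against 7.63, 7.41, 7.78, 7.14 and 7.17 antepartum. Cows F, I and J were higher postpartum and cows G and H slightly lower, and the change of 0.61 did not pass (SE 0.23, adjusted p = 0.255).

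Apolipoprotein genes rose in 5 of 23 cases and fell in 1. APOA1, a structural protein of high density lipoprotein particles, had 8.95, 8.86, 9.30, 9.16 and 9.10 postpartum, against 7.26, 7.48, 7.68, 7.70 and 8.20 antepartum. All postpartum arrays lay above all antepartum arrays (log2 change 1.41, SE 0.12, adjusted p = 0.00092). APOA4, an apolipoprotein linked to triglyceride export, rose 4.29-fold (SE 0.27 on the log2 scale, adjusted p = 0.00517), but a second, dimmer probe set of the symbol changed by 0.05 log2 (SE 0.13). APOM, a carrier of sphingosine phosphate, rose by 0.89 (adjusted p = 0.00265), APOC2, the activator of lipoprotein lipase, by 0.88 (adjusted p = 0.0136), and SCARB1, the receptor of high density lipoprotein, by 0.66 (adjusted p = 0.0233). APOB and MTTP, which build very low density lipoprotein, changed by -0.24 (adjusted p = 0.241) and 0.17 (adjusted p = 0.614).

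The pair of genes for sterol export into bile fell. ABCG8, which pairs with ABCG5 in the canalicular sterol exporter, had 6.33, 7.67, 6.77, 6.40 and 6.03 postpartum, against 7.93, 8.49, 8.36, 8.04 and 8.32 antepartum. No postpartum array reached the antepartum ones (log2 change -1.59, SE 0.17, adjusted p = 0.00265). ABCG5 fell by 1.41 (SE 0.15, adjusted p = 0.00271), with the smallest fall of each gene in cow G. ABCB4, which exports phosphatidylcholine into bile, rose by 0.47 (adjusted p = 0.0357). CYP7A1, the first enzyme of bile acid synthesis, changed by 0.25 (adjusted p = 0.691), and NR0B2, a repressor of bile acid synthesis, by -1.15 (SE 0.30, adjusted p = 0.0941). NR0B2 changed by -2.55 in cow H and by 0.05 in cow G. Of 23 bile acid and sterol genes 1 rose and 2 fell, with a median of -0.24, and of 24 cholesterol synthesis genes 1 rose, STARD4, an intracellular sterol carrier (0.75, adjusted p = 0.0153).

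Of 31 urea cycle and amino acid genes 3 rose and 1 fell. HAL, the first enzyme of histidine breakdown, had 10.15, 9.66, 10.04, 10.44 and 10.31 postpartum, against 7.80, 8.16, 8.22, 8.92 and 8.22 antepartum. The groups did not overlap, and HAL rose 3.63-fold (log2 change 1.86, SE 0.14, adjusted p = 0.000261). AMDHD1, a later enzyme of the same route, rose by 1.09 (SE 0.16, adjusted p = 0.00806). In the urea cycle ARG1, the arginase, rose by 1.10 (SE 0.13, adjusted p = 0.0037), OTC, the ornithine carbamoyltransferase, fell by 0.86 (SE 0.16, adjusted p = 0.0259), and CPS1, the entry enzyme, changed by -0.03 (adjusted p = 0.935). MAT1A, which makes the methyl donor S-adenosylmethionine in liver, rose by 0.51 (adjusted p = 0.0329) and was the 1 gene of 22 to pass in the methionine and choline list.

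Plasma proteins known to rise in inflammation did so in 12 of 35 cases, while 1 fell, and the list median was 0.18. The shares over all genes were 1.39% and 0.939%. The number that rose was 5 without cow F, 6 without cow H or J and 9 without cow G or I. HP, encoding haptoglobin, the carrier of free hemoglobin and a clinical marker of inflammation in cattle, had 12.72, 12.46, 12.48, 12.03 and 12.83 postpartum, against 9.60, 6.05, 6.61, 9.20 and 9.27 antepartum. The postpartum signals were alike in all cows. Antepartum signals were far lower in cows G and H, whose changes of 6.41 and 5.87 compare with 2.82 to 3.56 in the other cows (mean 4.36, 20.5-fold, SE 0.48, adjusted p = 0.00271). SAA3, a serum amyloid A, had 9.57, 11.11, 10.04, 9.32 and 11.62 postpartum, against 7.43, 7.56, 7.81, 8.20 and 8.29 antepartum. It rose in all cows, least in cow I and most in cow G (log2 change 2.47, SE 0.29, adjusted p = 0.0037).

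LBP, which carries lipopolysaccharide to its receptor, rose by 1.44 with a small spread, 1.29 to 1.73 per cow (SE 0.10, adjusted p = 0.000261). LCN2, an iron-siderophore binding protein, rose by 1.37 (SE 0.16, adjusted p = 0.00363) and ORM1, an acid glycoprotein, by 0.58 (adjusted p = 0.0163). SAA4, IL1RN, ITIH3, ITIH4 and the serpins SERPINA3, SERPINA3-1 and SERPINA3-8 rose by 0.47 to 1.03; these serpin genes are close copies of each other, and their probes may share transcripts. CD14, the lipopolysaccharide co-receptor, fell by 0.66 (SE 0.14, adjusted p = 0.0422). CRP, encoding C-reactive protein, changed by 0.11 (adjusted p = 0.641). HAMP, the iron hormone hepcidin, had 11.43, 10.66, 10.46, 11.95 and 11.80 postpartum, against 9.43, 11.00, 9.76, 10.28 and 9.90 antepartum, and was lower postpartum in cow G alone (log2 change 1.19, SE 0.30, adjusted p = 0.0795). In the iron list of 21 genes STEAP3, a ferrireductase, rose by 0.99 (adjusted p = 0.00559).

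Among 12 plasma carriers known to fall in inflammation, 2 fell and 1, APOA1, rose. TTR, the carrier of thyroxine and of retinol-binding protein, fell by 0.64 (SE 0.12, adjusted p = 0.0277) and SERPINA6, the cortisol carrier, by 1.13 (SE 0.20, adjusted p = 0.0192). RBP4, the retinol carrier itself, stood at 12.29 ± 0.04 postpartum and 12.32 ± 0.06 antepartum (SD, n = 5 each, adjusted p = 0.92). Of 34 NF-kB, cytokine and chemokine genes 2 rose and 1 fell, with a median of -0.03. With 1 cow left out, 0 or 1 rose and 0 to 3 fell. IL1R1, a receptor of interleukin 1, rose by 0.50 (adjusted p = 0.0485). STAT3, the transcription factor that relays interleukin 6, rose by 0.50 (SE 0.089, adjusted p = 0.022). IL1R1 passed in no fit that left out 1 cow, and STAT3 only in that without cow G. VCAM1, an adhesion molecule, fell by 0.97 (SE 0.20, adjusted p = 0.0364), though not in cow G. Of 37 complement and coagulation genes 0 passed by limma, and their median was -0.01; the lowest adjusted p, 0.136, was that of complement component C7, which changed by -0.33.

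Of 11 collectins and secreted lectins, which serve innate defence, 3 fell, and the list median was -0.28. CGN1, encoding conglutinin, a lectin known from cattle serum, had 9.37, 8.83, 8.72, 7.83 and 7.87 postpartum, against 11.17, 10.44, 11.19, 11.80 and 11.24 antepartum. The fall was largest in cows I and J, with changes of -3.97 and -3.37 (mean log2 change -2.64, 6.25-fold, SE 0.30, adjusted p = 0.0032). CL43 fell by 1.33 (SE 0.21, adjusted p = 0.0125) and CL46 by 0.83 (SE 0.11, adjusted p = 0.00559), with dim CL46 signals of 4.20 ± 0.15 postpartum and 5.02 ± 0.28 antepartum (SD, n = 5 each). The 3 genes are close relatives. The other 8 collectins and lectins measured did not pass.

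GPX3, a secreted glutathione peroxidase, showed the largest change of all 20011 genes. It had 11.61, 11.30, 8.81, 11.14 and 11.74 in cows F to J postpartum, against 6.52, 6.95, 5.44, 6.26 and 5.63 antepartum. Cow H was lowest at both times, and the 5 changes ran from 3.36 to 6.12 (mean 4.76, 27.1-fold, SE 0.30, adjusted p = 0.00013). GPX1, the cytosolic glutathione peroxidase, stood at 9.36 ± 0.43 postpartum and 9.39 ± 0.46 antepartum (SD, n = 5 each, adjusted p = 0.951), with a change of -0.72 in cow H against 0.09 to 0.19 in the other cows. SRXN1, which repairs peroxiredoxins, rose by 0.54 (adjusted p = 0.0346). Of 33 genes of this list 5 rose and 0 fell.

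The other 3 genes that rose were metallothioneins, small proteins that bind zinc and copper. MT1E had 10.64, 10.64, 9.57, 10.10 and 12.21 postpartum, against 7.08, 7.75, 8.69, 6.51 and 6.05 antepartum. Cow J changed most and cow H least, by 6.16 and 0.87 (mean 3.41, 10.7-fold, SE 0.55, adjusted p = 0.0135). A second, dimmer MT1E probe set changed by 2.45 (SE 0.36). MT1A rose by 2.40 (SE 0.33, adjusted p = 0.00652) and MT2A by 2.00 (SE 0.30, adjusted p = 0.011), again most in cow J, by 4.04 and 3.64, and least in cow H, by 1.05 and 0.99. These genes are close copies, so that a probe set may read more than 1 of them, and their changes are not 3 separate observations.

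Of 35 cytochrome P450, retinoid and steroid genes 8 fell and 1 rose, against 0.939% and 1.39% of all genes, with a median of -0.20. The number that fell was 1 without cow H, 4 without cow I or J, 6 without cow F and 10 without cow G. CYP26A1, which degrades retinoic acid, had 5.73, 6.18, 5.61, 5.59 and 5.29 postpartum, against 7.31, 6.64, 8.12, 7.17 and 7.95 antepartum. All postpartum arrays were lower, cow G by only 0.46 (mean log2 change -1.76, SE 0.27, adjusted p = 0.011). CYP2C18 fell by 1.03 (SE 0.15, adjusted p = 0.00778), CYP2C19 by 0.99 (SE 0.16, adjusted p = 0.0126) and CYP2C87 by 1.09 (SE 0.19, adjusted p = 0.0202); these members of a drug-oxidizing family are near copies that may share signal. HSD17B2, which inactivates estradiol, fell by 1.06 (adjusted p = 0.0156), AKR1C3 by 0.65, RDH10 by 0.55 and HSD11B1, the enzyme that regenerates cortisol, by 0.49 (adjusted p = 0.0452). CYP2E1, an oxidase of ethanol and ketones, was lower in all 5 cows without overlap, by 0.38, but did not pass (SE 0.095, adjusted p = 0.0816). CYP4F2, a fatty acid hydroxylase, rose by 0.80, but a second, dim probe set of its symbol changed by -0.39 (SE 0.21). Of 24 conjugation genes GSTT2 rose by 1.15 (adjusted p = 0.00271), while GSTM2 fell by 1.15 (adjusted p = 0.0277) and GSTM3 by 0.54 (adjusted p = 0.0402).

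Other large changes were in genes outside these lists. C5H12orf75, an open reading frame, rose by 2.06 (SE 0.17, adjusted p = 0.000617) and ABHD1, of the alpha/beta hydrolase family, by 1.77 (SE 0.28, adjusted p = 0.0134). SCGB1D, a secretoglobin, fell by 2.22 (SE 0.25, adjusted p = 0.00304). PYROXD2, a mitochondrial protein of the oxidoreductase class, fell by 1.77 (SE 0.13, adjusted p = 0.000274; a second probe set by 1.21) and XPNPEP2, an aminopeptidase of the cell surface, by 1.75 (SE 0.18, adjusted p = 0.00194). AK4, an adenylate kinase of mitochondria, fell by 1.68 (SE 0.30, adjusted p = 0.022), with -3.30 in cow J against -1.66 to -0.55 in the others.

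**Figure D3:**
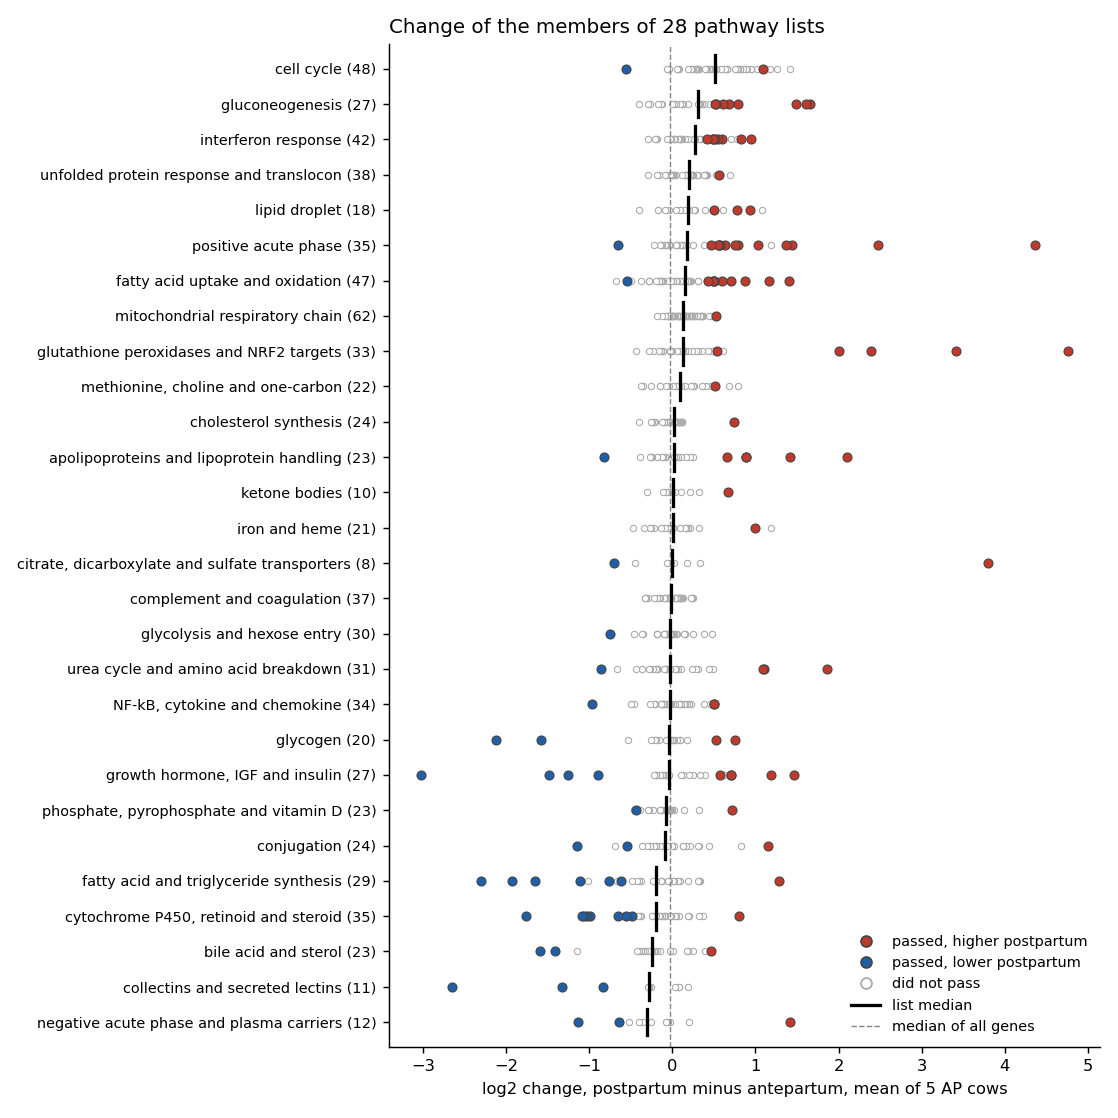
Log2 change of each measured member of 28 pathway lists, averaged over 5 AP cows, with lists ordered by their median (black bar) and the number of measured members in parentheses. The list medians ran from 0.51 for the cell cycle to -0.30 for plasma carriers, against -0.02 over all genes (dashed), and most members did not pass.

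The cell cycle list had the highest median of all 28 lists, 0.51, yet 1 gene rose and 1 fell among 48. Of all genes 1.39% rose and 0.939% fell. NUSAP1, a spindle protein, rose by 1.09 (SE 0.17, adjusted p = 0.0118) at dim signals of 4.44 ± 0.35 postpartum and 3.36 ± 0.36 antepartum (SD, n = 5 each). CDKN1A, an inhibitor of the cycle, fell by 0.55 (SE 0.11, adjusted p = 0.0277), but it passed in no fit that left out 1 cow. TOP2A, a topoisomerase of dividing cells, had 5.65, 7.10, 5.88, 5.15 and 3.67 postpartum, against 4.32, 4.20, 4.28, 3.64 and 3.91 antepartum. Cow G was far higher, cows F, H and I were higher and cow J was slightly lower, and the change of 1.42 did not pass (SE 0.33, adjusted p = 0.06). MKI67, the Ki-67 antigen, changed by 0.89 (adjusted p = 0.0936).

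The mean over the 48 genes was 5.99, 6.89, 6.34, 5.73 and 5.41 in cows F to J postpartum, against 5.55, 5.63, 5.48, 5.51 and 5.47 antepartum. The antepartum arrays were nearly alike. The postpartum arrays spread from cow G, with 45 of 48 genes higher, to cow J, with 22. The number that rose was 9 without cow J, 0 without cow H, 2 without cow G and 1 without cow F or I, and without cow G the median change was 0.36. Endothelial, macrophage and lymphocyte markers, which could carry dividing cells other than hepatocytes, had 0 of 10, 0 of 13 and, for T or NK and B or plasma cells, 0 of 16 and 0 of 9 genes pass by limma, with median changes of 0.01 and -0.14 for endothelial and macrophage markers and of -0.04 and -0.10 for T or NK cells and for B or plasma cells. Their part in the result was not tested.

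Of 42 interferon response genes 8 rose and 0 fell, against 1.39% and 0.939% of all genes, with a median of 0.27. OAS1Y, an oligoadenylate synthetase, rose by 0.95 (SE 0.17, adjusted p = 0.0235), USP18, a brake on interferon signalling, by 0.83 (SE 0.12, adjusted p = 0.00752) and DTX3L, a ubiquitin ligase, by 0.52 (adjusted p = 0.0261). HERC5, PARP9, OAS2, DDX58 and STAT2 rose by 0.41 to 0.60. In cow J the mean of the list was already highest antepartum, at 7.11 against 6.86 to 6.91 in the other cows. With 1 cow left out, 1 to 3 of the 42 passed.

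Over all 20011 genes, 8844 had a positive and 11167 a negative change. In the unfolded protein response 30 of 38 genes had a positive change, with a median of 0.20. Only SEC11C, a signal peptidase subunit, passed, and it rose by 0.56 (adjusted p = 0.0221). The list mean changed by 0.55 in cow G and by 0.04 to 0.18 in the other cows, and without cow G the median was 0.10. In the same list HSPA5, the main chaperone of the endoplasmic reticulum, changed by 0.18 (adjusted p = 0.73), with 0.94 in cow G and -0.58 in cow F. Of 62 respiratory chain genes 48 had a positive change and 1 passed, NDUFV2, a subunit of complex I (0.53, SE 0.099, adjusted p = 0.0261). Of all genes 2.33% passed, and NDUFV2 passed in no fit that left out 1 cow. Of 23 phosphate, pyrophosphate and vitamin D genes 1 rose and 1 fell, while 19 had a negative change, with a median of -0.08. ANKH, which exports pyrophosphate, rose by 0.71 (SE 0.11, adjusted p = 0.012) and RGN, the calcium-binding protein regucalcin, fell by 0.44 (adjusted p = 0.0408). RGN passed in no fit that left out 1 cow. The phosphate carriers SLC20A1 and SLC34A2 changed by -0.04 (adjusted p = 0.945) and -0.05 (adjusted p = 0.9).

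Markers of most cell types, hepatocytes included, were mostly lower postpartum without passing. The hepatocyte list was negative in 10 of 12 genes, while 6 of 10 endothelial and 4 of 7 platelet markers had a positive change. The macrophage list was negative in 12 of 13 genes and the skeletal muscle list in 17 of 17, with 0 of either passing by limma. Over all genes, 11167 of 20011 were negative. The stellate cell and fibroblast list was negative in 13 of 14, and 2 fell, DCN, the matrix proteoglycan decorin (-0.53, adjusted p = 0.0439), and RELN, encoding reelin (-0.60, adjusted p = 0.0363). The sum of linear signals over the fibroblast list ran from 2541 to 3729 postpartum and from 3102 to 4750 antepartum, and that over the muscle list from 649 to 893 postpartum and from 718 to 2587 antepartum. The highest antepartum mean of both lists was that of cow F. The linear sum over 12 hepatocyte markers ran from 66640 to 72536 postpartum and from 73768 to 81350 antepartum, without overlap. The part of these shifts in the results above was not tested. On a microarray no gene has a true zero, and no marker could be called absent.

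**Figure D4:**
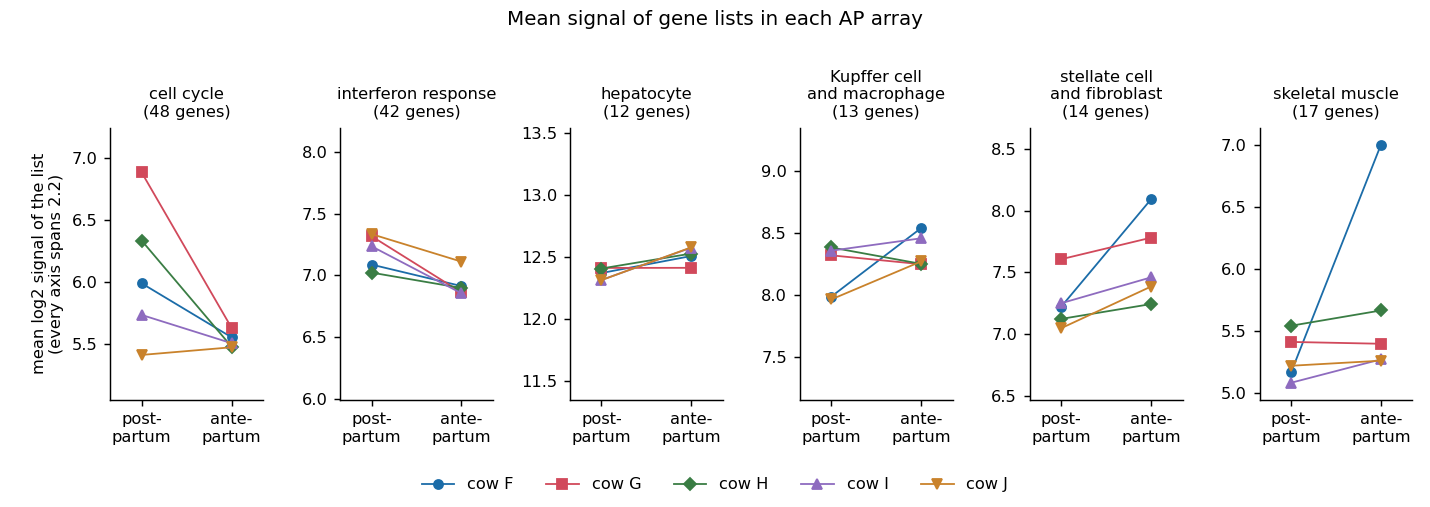
Mean log2 signal of 6 gene lists in each AP array, postpartum on the left and antepartum on the right, 1 line per cow, with every axis spanning the same 2.2 log2 units. The cell cycle list spread from 5.41 to 6.89 postpartum and lay between 5.47 and 5.63 antepartum, and the muscle list was highest in the antepartum array of cow F, at 7.00.

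The change was then set beside that of the 5 LP cows, whose ration before calving held less phosphorus, and the difference was tested on the change per cow. By limma 0 of 20011 genes differed between AP and LP cows (0%; lowest adjusted p = 0.994), and 786 (3.93%) had an unadjusted p under 0.05. The lowest unadjusted p among the named genes was 0.000486, for IGF1, which changed by -3.02 in AP and -1.05 in LP cows (difference -1.97, adjusted p = 0.994). Of the 467 genes called in AP cows, 425 (91.0%) had the same sign in LP cows, against 58.0% of all genes. The median ratio of the LP to the AP change over them was 0.457. Since these genes were chosen for their change in AP cows, a smaller change in LP cows follows in part from the choice. LP cow C stood apart in matrix genes, with changes of 4.72 for OGN and 4.31 for FMOD, both small proteoglycans of connective tissue. Without cow C the share was 95.1% against 60.0% of all genes, the ratio 0.549, and still 0 genes differed (lowest adjusted p = 0.636).

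The LP cows differed among themselves. Of the 467 genes, cow E moved the same way as the AP mean in 448, cow D in 437, cow B in 354, cow A in 293 and cow C in 227. All 5 LP cows moved that way in 86 of them. Over all genes, a share of 61.3% had the sign of the AP mean in cow E, 52.8% in cow D, 58.2% in cow B, 49.4% in cow A and 52.0% in cow C. The AP cows themselves set that sign and the choice of the 467 genes, so their own shares are no comparison. The genes that follow are examples and do not stand for all 467. SLC13A5, with 3.65 to 3.92 in AP cows, changed by 4.16 in cow E, 3.57 in cow D, 1.00 in cow C, 0.24 in cow B and -0.04 in cow A. IGF1, with -3.74 to -2.78 in AP cows, changed by -2.35 in cow E, -2.16 in cow D, -0.54 in cow A, -0.30 in cow C and 0.09 in cow B. THRSP fell by 1.93 or more in every AP cow and by 2.23 and 2.05 in cows E and D, but was higher postpartum in cows A, B and C. MT2A was higher postpartum in all AP cows and in cows D and E, and lower in cows A, B and C. These per-cow values are given as descriptions, and no test was run on a split of the LP cows.

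**Figure D5:**
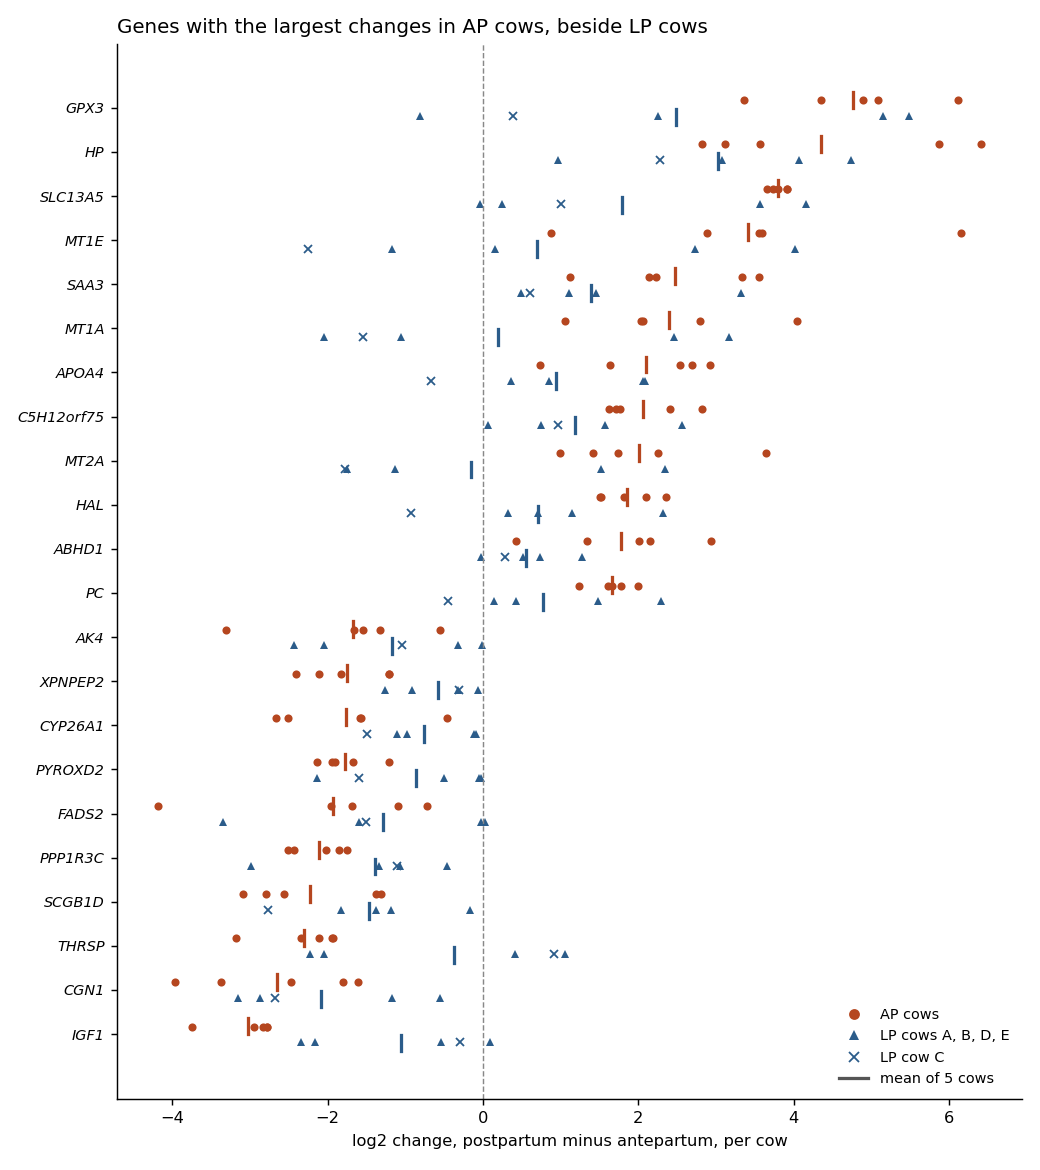
Log2 change across calving of the 12 genes with the largest rises and 10 with large falls in AP cows, in each AP cow (circles) and each LP cow (triangles, cow C as a cross), with the mean of each diet as a bar. For SLC13A5 the AP cows sat at 3.65 to 3.92 and the LP cows between -0.04 and 4.16; 0 genes differed between the diets after adjustment.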

How the data were processed

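Liver RNA of 5 AP and 5 LP cows, each sampled postpartum and antepartum, was measured on 20 Affymetrix bovine gene arrays. The authors deposited log2 signals, made by RMA with Affymetrix Expression Console 1.4 per the submitters' processing notes. The signals used here are labelled SST-RMA, and the sizes of the changes are those of that scale. The order of the authors' steps and the annotation build are not given in the sources used here. Of 24333 probe sets 20421 carried a single symbol, and the brightest per symbol left 20011 genes; 23 symbols that a spreadsheet had turned into dates were not named. Names were checked against a RefSeq gene table, where 1793 genes had no match. No signal was floored or imputed.

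The AP arrays were fitted with limma 3.58.1 in R 4.3.3, with the cow as a block and Benjamini-Hochberg adjustment over all genes, and the AP minus LP test used the change per cow. The pairing comes from the animal number in the sample titles; residuals of the same cow correlated at 0.072 to 0.249, above 0.1 in 3 of 5 cows. With 5 cows, an exact paired test of a single gene cannot go below p = 0.0625. The precision is limited by the number of arrays.

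Members, lists and comparisons were chosen with earlier results of these data known. Genes were named by rule: the 12 largest changes per direction that passed and went the same way in 5 of 5 cows, up to 3 passing genes per list and direction or otherwise the list's lowest p, and 64 genes chosen for their role. Other passing list members were named after their values were seen, and some genes that the rule names are not reported here. Alternatives covered the block, the arrays in the fit, normalization, dim genes, probe sets, the variance model, array weights, rounding, the threshold and leaving out each cow.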

Additional observations from a re-analysis of the deposited data

Results flagged for a closer look

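In 6 of 144 genes named, the change of 1 cow lay apart from the other 4 by more than Dixon's critical value of 0.71 of the range; chance does this in about 5% of groups. IGFBP1 changed by 3.22 in cow H, against 0.75 to 1.42 in the other AP cows, and GPX1 by -0.72 in cow H, against 0.09 to 0.19. Cow G stood apart in 2 genes. STARD4 changed by 0.22 there against 0.78 to 0.97 in the others, and LGR4, a receptor that strengthens Wnt signalling, by -0.14 against -0.73 to -0.59. Cow J stood apart in the others: ABCB4 changed by 0.21 against 0.51 to 0.57, and IGF1 by -3.74 against -2.95 to -2.78. The cause was not tested.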

How the results depend on the processing

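The 467 genes called in AP cows kept their sign under every alternative run that tested them, but the number called moved with the variance model and the arrays used. Without the replicate block, which ignores the pairing, 412 passed, 339 of them among the 467. It was 126 genes (72 higher, 54 lower) with all 20 arrays and the block, and 429 when LP cow C was left out of that fit, an alternative chosen after seeing the data. It was 703 (287 lower) without genes under a mean signal of 5 and 743 (433 higher, 310 lower) without the dimmer part of the genes, where fewer genes were tested. It was 711 (294 lower) with a trended, robust variance, 814 (475 higher, 339 lower) at a threshold of 0.1, and 1 gene, SLC13A5 (1 higher, 0 lower), with no moderation of the variance, where each gene has 4 residual degrees of freedom. Leaving out each cow gave 175 to 495 genes, 104 to 268 higher and 66 to 227 lower. Of 87 passing genes named by rule and reported, 1, SLC13A5, passed under all alternatives, 30 were lost only without moderation, and 56 under at least 1 other. No gene differed between AP and LP cows by limma under the alternatives run, with 574 to 1280 at an unadjusted p under 0.05. Signs turned only for genes that did not pass. Over fits that left out 1 cow, HSPA5 ran from -0.0047 (without G) to 0.38, CPS1 from -0.096 to 0.016 (0.0028 without H), GPX1 from -0.085 to 0.14, SLC20A1 from -0.22 to 0.11 (0.045 without H, and 0.00084 with its probe sets averaged) and SLC34A2 from -0.12 to 0.059. The cause of these shifts was not tested. Dim genes, 23 of the 467 with a mean signal under 5, are compressed toward background, so that their changes may be understated.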

Other observations

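Genes outside the pathway lists, chosen after their values were seen, also passed in AP cows. They were picked on their values from no fixed list, and describe no group. COLGALT2, which adds galactose to collagen, rose by 1.11 (SE 0.11, adjusted p = 0.00147), P4HA1, a prolyl hydroxylase, by 1.09 and PLOD3, a lysyl hydroxylase, by 0.82. Of genes for matrix proteins, OGN fell by 0.98, SPARC by 0.67, FMOD by 0.53, DCN by 0.53 and BGN by 0.49. FMOD, DCN and BGN did not pass without cow F, H, I or J, SPARC did not without cow H, and OGN, FMOD and BGN did not pass without the block. The antepartum array of cow F had the highest mean of the fibroblast markers, 8.09 against 7.24 to 7.78 in the other antepartum arrays. In LP cows these 5 matrix genes changed by 0.65, 0.66, 1.06, 0.35 and 0.18 in that order, and without cow C by -0.37, 0.11, 0.25, -0.17 and -0.12. The part of other cells was not tested.

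OGDH, of the citric acid cycle, rose by 0.72, the isocitrate dehydrogenases IDH2 and IDH1 by 0.68 and 0.48, and MPC1, of the mitochondrial pyruvate carrier, by 0.66. ACMSD, an enzyme of tryptophan breakdown, rose by 1.46 (SE 0.18, adjusted p = 0.00408). Among receptors, IL4R rose by 1.05, LEPR, the leptin receptor, by 0.90, GCGR, the glucagon receptor, by 0.53 and OSMR by 0.45. LGR5, a Wnt target known from cells around the central vein, fell by 1.43 (SE 0.21, adjusted p = 0.00823), LGR4 by 0.54 and CDH1, encoding E-cadherin, by 0.76. The metal carriers SLC39A8 and SLC30A10, both known to move manganese, fell by 0.58 and 0.57. IDH1, OSMR and SLC30A10 passed in no fit that left out 1 cow. OGDH, GCGR and LGR4 did not pass without cow F, H, I or J, and SLC39A8 did not without cow F, G, H or J. IDH2 was lost without cow H, I or J, MPC1 without cow F, H or I, and IL4R without cow H or I.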
